A study of Drosophila melanogaster with 6 samples.

Results

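Input RNA from UV-crosslinked cells was set against input RNA from cells that were not irradiated. The comparison uses 3 of the 6 libraries of an eCLIP experiment on Asterix (Gtsf1, gene arx), a zinc-finger protein of the piRNA pathway. The cells were OSS cells, a cultured line of Drosophila ovarian somatic sheath cells, which carry Asterix expressed from its endogenous promoter with a C-terminal GFP-FRT-Precission-V5-3xFLAG-P2A tag. That tagged protein was shared by all libraries, and the labels do not say whether the line was 1 clone. The crosslinked input has 2 libraries, from cells irradiated at 254 nm with 400 mJ, and the non-crosslinked input has 1 library from cells without irradiation. Every lysate was treated with RNase I for 5 minutes at 37 °C, and the input was taken from it without FLAG recovery. Nothing in the labels says whether the libraries came from separate cultures, so p-values measure the spread between these libraries only. The single non-crosslinked library serves both crosslinked replicates, so both ratios share it, and crosslinking, that one library and its lower depth cannot be told apart.

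In eCLIP, ultraviolet light at this wavelength links RNA bases to proteins they touch, RNase I trims the exposed RNA, and the remaining fragments are ligated to adapters and reverse transcribed. The input is the size-matched background against which protein-bound fragments are read, so its own composition sets what counts as enriched. Its fragments come mostly from structured and protein-covered RNAs: rRNA, tRNA, the snoRNAs that guide rRNA modification in the nucleolus, the snRNAs of the spliceosome, and mRNA. Transfer RNAs carry dense base modifications, and tRNAs, snoRNAs and snRNAs differ in the proteins that cover them.

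Reads were summed per gene and part (exon or intron), per transposon consensus, per tRNA isotype and per small RNA. Of 21787 items with a read, 7998 had a mean of 10 or more reads over the 3 libraries and were tested. The non-crosslinked input held 4023956 annotated reads and the crosslinked inputs 15676049 and 11210024, so a floor of 3 reads was 0.746, 0.191 and 0.268 reads per 1000000 annotated reads (RPM). Unannotated reads were 4.07% of the non-crosslinked library and 1.98% and 2.22% of the crosslinked ones. Markers of ovarian somatic cells were present: tj, which encodes the Traffic jam transcription factor of somatic gonadal cells, had 50.7, 75.9 and 73.4 RPM in the order non-crosslinked, crosslinked replicate 1 and crosslinked replicate 2, an order kept below for every group of 3 values. Summed over the exons of 23 listed ovarian somatic genes, the level was 308, 414 and 426 RPM, against 4.56, 2.61 and 2.36 RPM for the exons of 8 germline markers (vas had 1, 3 and 2 reads). Hemocyte, muscle, neuron and fat body markers summed to at most 7.48 RPM in any library, and were lower in both crosslinked inputs; their part in the results was not tested.

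Tests used edgeR's quasi-likelihood F-test, and p-values were adjusted over all items by the Benjamini-Hochberg method with a threshold of 0.05. In all, 1492 items (18.7%) were higher in crosslinked input and 574 (7.18%) were lower. The direction of the balance depended on the total: with rRNA left out of the total, 458 items (5.73%) were higher and 755 (9.44%) lower. The median log2 ratio over all items was 0.42 with rRNA in the total and -0.02 without it, a shift that applies to every item alike. Under both totals, 456 items (5.7%) were higher and 574 (7.18%) lower. In a description without the model, 1234 items (15.4%) were more than 2-fold higher and 585 (7.31%) more than 2-fold lower in both replicates, and with the total lacking rRNA these were 647 (8.09%) and 849 (10.6%). The median difference between the 2 replicate ratios of an item was 0.20 in size. Exact permutation of 2 libraries against 1 cannot give a p below 0.33, so the test rests on the spread between the crosslinked libraries, and the lone non-crosslinked library is assumed to vary as they do.

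Transfer RNA made up 4.75% of annotated reads without crosslinking (95% Wilson interval 4.73% to 4.78%), and 0.327% and 0.288% with it (0.308% ± 0.0279, SD, n = 2). The share was thus 15.5-fold lower, far beyond the gap between the crosslinked libraries, and 20.8-fold lower with rRNA left out of the total. As RNA shares sum to a fixed total, less of one RNA and more of the others cannot be told apart, nor can fewer cells and less RNA per cell. All 22 tRNA isotypes were lower by edgeR under both totals, against 7.18% of all items, with a median log2 ratio of -2.75 over the isotypes.

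tRNA-Asp dominated the class. It had 148660 reads in the non-crosslinked input and 24779 and 16595 in the deeper crosslinked inputs, or 36944, 1581 and 1480 RPM. Both crosslinked libraries were far below the other, with replicate log2 ratios of -4.55 and -4.64 (edgeR log2 ratio -4.59, SE 0.35, adjusted p = 7.52e-07). It held 77.7% of tRNA reads without crosslinking and 48.3% and 51.4% with it. Without it, tRNA was 1.10% of reads against 0.170% and 0.140%, so the remaining tRNAs were 7.11-fold lower.

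The drop was uneven among isotypes. tRNA-His had 209, 7.30 and 6.78 RPM, a log2 ratio of -4.89 (SE 0.21, adjusted p = 5.09e-09). tRNA-Asn had 1033, 42.2 and 37.6 RPM (log2 ratio -4.69). Together with tRNA-Asp and tRNA-Tyr (138, 7.88 and 8.97 RPM, log2 ratio -4.03), these had the 4 lowest fitted ratios among the 22 isotypes. In bacteria and animals, tRNAs for these amino acids can carry queuosine in place of guanine at the wobble base of the anticodon. Its part here was not tested. The grouping did not hold by anticodon, where tRNA-Arg-TCT (48.7, 2.31 and 2.11 RPM, replicate ratios -4.39 and -4.50) lay below tRNA-Tyr-GTA (-4.12 and -3.94). tRNA-Val followed with 360, 26.0 and 26.9 RPM (log2 ratio -3.77). tRNA-Glu, the second most abundant isotype, had 4980, 660 and 674 RPM, a log2 ratio of -2.90 (SE 0.28).

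At the other end, tRNA-Lys had 47.2, 27.0 and 33.3 RPM, a log2 ratio of -0.65 (SE 0.20, adjusted p = 0.0302), and the initiator tRNA-iMet had 15.9, 7.27 and 7.58 RPM (log2 ratio -1.10). tRNA-Gln was the isotype whose replicates lay farthest apart, with 570, 328 and 81.1 RPM and ratios of -0.80 and -2.81. A single deposited feature, tRNA-Gln-CTG-1-1, had 2043 reads without crosslinking, 4649 in crosslinked replicate 1 and 674 in replicate 2. Split by anticodon, 45 of 45 with a mean of 10 or more reads lay below 0 in both replicates, and 40 were more than 2-fold lower in both. The immunoprecipitates of the same experiment did not share the direction: there tRNA was 0.337% of annotated reads without crosslinking and 1.10% and 1.14% with it.

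**Figure D1:**
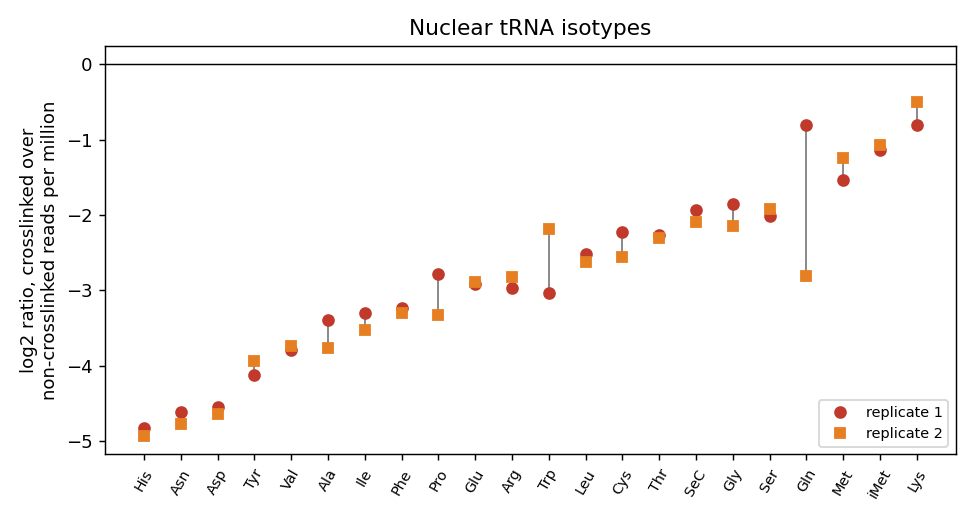
The points give, for each of the 22 nuclear tRNA isotypes, the log2 ratio of RPM in crosslinked over non-crosslinked input, as circles for replicate 1 and squares for replicate 2, ordered by their mean. Every isotype lies below 0 in both replicates, from tRNA-His near -4.9 to tRNA-Lys between -0.81 and -0.50, and tRNA-Gln shows the widest gap between replicates.

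Small nucleolar RNA moved the other way. It was 1.28% of annotated reads without crosslinking (95% Wilson interval 1.27% to 1.29%) and 6.89% and 8.47% with it (7.68% ± 1.11, SD, n = 2), a 5.99-fold higher share, or 4.41-fold with rRNA left out. Of 231 snoRNAs tested, 230 were higher by edgeR, against 18.7% of all items, and 223 were higher under both totals. The 231 include MeU6-A47 and Psi28S-3305b, which had no read in the non-crosslinked input. They met the minimum of reads through the crosslinked libraries alone. The median log2 ratio was 2.63 in replicate 1 and 2.93 in replicate 2.

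U3, the box C/D snoRNA that base-pairs with the pre-rRNA during its early cleavages, was the most abundant, with 2978, 20536 and 21230 RPM. Both crosslinked libraries were above the non-crosslinked one by a log2 ratio of 2.81 (SE 0.40, adjusted p = 0.000152). The largest gains past the threshold, ranked by the smaller replicate ratio, were those of Me28S-C3420a with 6.71, 122 and 121 RPM (log2 ratio 4.17) and Me28S-C3351 with 3.98, 74.6 and 59.9 RPM (log2 ratio 4.08). Both are box C/D RNAs by name, guides of 28S rRNA 2'-O-methylation. Me28S-C788a rose from 4.0 reads to 391.5 and 180.5 (log2 ratio 4.37), Me28S-A774a had 17.5, 250 and 255 RPM (log2 ratio 3.86), and snoRNA:291 had 0.994, 15.4 and 18.1 RPM (log2 ratio 4.05).

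By guide type, the median log2 ratio was 2.83 over 96 snoRNAs with box C/D names, which direct 2'-O-methylation, 2.77 over 107 with H/ACA names, which direct pseudouridylation, and 2.78 over 28 whose names give no type. Psi28S-291 was the snoRNA that did not pass, with 902, 1139 and 1625 RPM (log2 ratio 0.62, SE 0.31, adjusted p = 0.16). In the immunoprecipitates, snoRNA was 1.77% without crosslinking and 5.19% and 6.35% with it, the same direction as in the inputs.

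The scaRNAs of the Cajal body, which guide modification of spliceosomal snRNAs, behaved like snoRNAs: 13 of 14 were higher, against 18.7% of all items. Their median log2 ratio was 2.90. MeU2-C41 had 6.96, 107 and 172 RPM (log2 ratio 4.32), and MeU5-G38 had 1 read against 326 and 243 reads. MeU5-C46 stood apart, with 56.2, 54.1 and 82.2 RPM and no call (log2 ratio 0.27, adjusted p = 0.448).

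All 12 snRNAs were higher, against 18.7% of all items, and 11 were higher under both totals. These counts include U6atac, which met the minimum of reads through the crosslinked libraries alone. U1, which recognises the 5' splice site, had 516, 3676 and 3887 RPM (log2 ratio 2.87, SE 0.35, adjusted p = 2.97e-05). U4 had 240, 1615 and 1709 RPM (log2 ratio 2.79), U5 140, 657 and 1013 RPM (log2 ratio 2.57), and U6 208, 1231 and 2272 RPM (log2 ratio 3.07). U2, which pairs with the branch point, rose least, with 1700, 3706 and 3879 RPM (log2 ratio 1.16, adjusted p = 0.0175), and did not pass with rRNA left out of the total (log2 ratio 0.72).

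The minor-spliceosome and histone-processing snRNAs rose too. U11 had 25.1, 114 and 117 RPM and U12 14.2, 57.1 and 50.0 RPM, while U4atac had 4 reads against 146 and 138. U6atac had no read without crosslinking and 26 and 12 with it. Its mean crosslinked level was 1.83-fold the floor of 3 reads in the non-crosslinked input. U7, which directs histone mRNA 3' end formation, had 4.72, 94.1 and 64.4 RPM (log2 ratio 4.07). The LU RNA (121, 355 and 381 RPM) and 7SK, which holds P-TEFb inactive (104, 507 and 377 RPM, log2 ratio 2.09), completed the class.

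**Figure D2:**
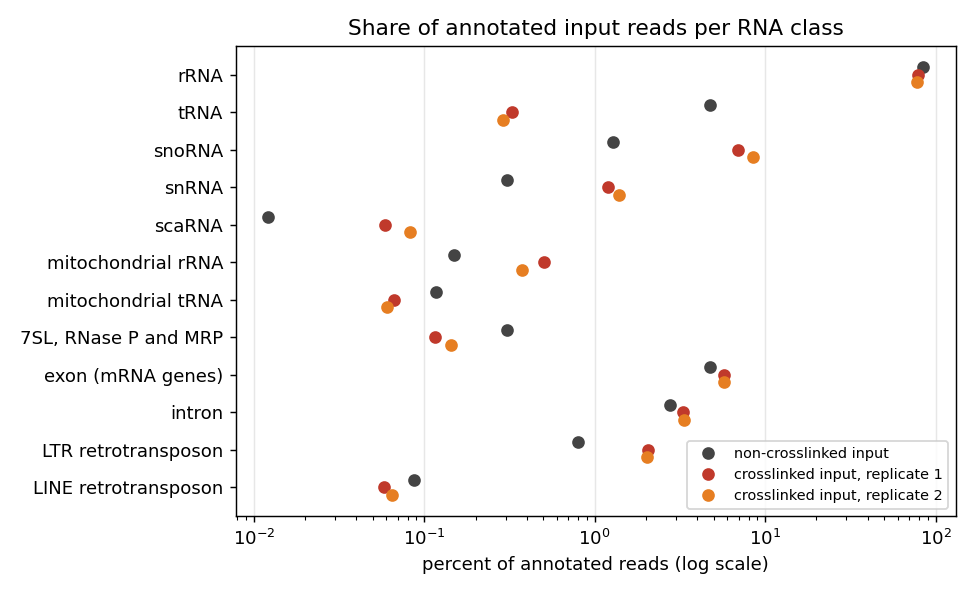
Each row gives the percent of annotated reads in 1 RNA class on a log axis, with grey for the non-crosslinked input and red and orange for the crosslinked inputs. tRNA lies at 4.75% without crosslinking against 0.327% and 0.288% with it, snoRNA at 1.28% against 6.89% and 8.47%, and exon reads at 4.72% against 5.71% and 5.71%.

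Ribosomal RNA was 84.1% of annotated reads without crosslinking and 79.0% and 77.3% with it. 5S rRNA, the RNA polymerase III transcript of the large subunit, rose from 8898 RPM to 36215 and 39740 RPM (log2 ratio 2.09, SE 0.41, adjusted p = 0.00207). The short 2S rRNA had 3.75, 10.9 and 14.2 RPM (log2 ratio 1.73, adjusted p = 0.00235). The 28S (382895, 317053 and 315129 RPM), 18S (44895, 60065 and 52960 RPM), 5.8S and pre-rRNA items did not pass, with log2 ratios between -0.28 and 0.61. Mature and precursor rRNA overlap and had fractional counts, so the split between them is uncertain.

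The signal recognition particle RNA and the RNAs of the processing enzymes RNase MRP and RNase P were not higher. 7SL, the RNA of the signal recognition particle, had 2064, 440 and 465 RPM and was lower (log2 ratio -2.19, SE 0.26, adjusted p = 2.81e-05). The RNA of RNase MRP, which cleaves pre-rRNA, had 750, 593 and 784 RPM (log2 ratio -0.12, adjusted p = 0.781). RNase P RNA, which matures tRNA 5' ends, had 237, 127 and 191 RPM (log2 ratio -0.58, adjusted p = 0.122) and passed as lower with rRNA left out of the total (log2 ratio -1.03).

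**Figure D3:**
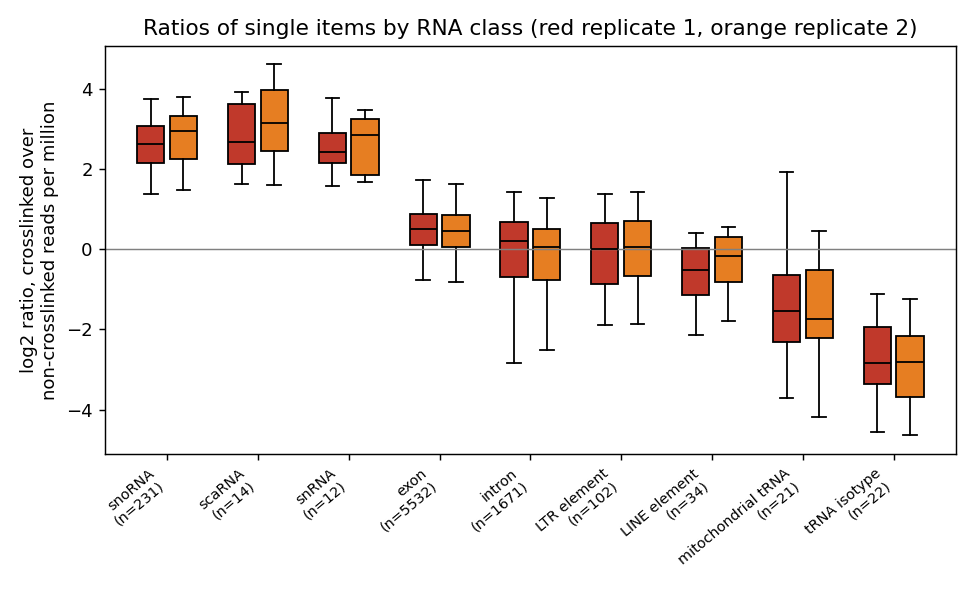
Boxes show the quartiles and whiskers the 5th to 95th percentile of the log2 ratio of single items, crosslinked over non-crosslinked input, in red for replicate 1 and orange for replicate 2. The boxes of snoRNA, scaRNA and snRNA lie above those of exons and introns in both replicates, and tRNA lies lowest.

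Mitochondrial RNA is transcribed as long precursors from which tRNAs, rRNAs and mRNAs are cut. Of 36 mitochondrial items tested, 27 were lower, 2 higher and 7 not called, next to 7.18% lower and 18.7% higher of all items. All 13 mitochondrial mRNAs were tested: 12 were lower under both totals, against 2.96% of all exon items, and the median log2 ratio was -1.49. mt:CoI, cytochrome c oxidase subunit I, had 194, 125 and 110 RPM (log2 ratio -0.72, SE 0.22, adjusted p = 0.0307). mt:CoII had 116, 33.2 and 31.5 RPM (log2 ratio -1.85, SE 0.18, adjusted p = 6.23e-06) and mt:ATPase6 146, 39.4 and 43.4 RPM (log2 ratio -1.82). The exception was the short mt:ATPase8, with 6.09, 7.91 and 8.74 RPM and no call; its gene overlaps mt:ATPase6.

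The mitochondrial rRNAs did not share the direction of the mRNAs. The large-subunit mt:lrRNA rose from 1059 RPM to 3923 and 3159 RPM (log2 ratio 1.74, SE 0.33, adjusted p = 0.00178). The small-subunit mt:srRNA had 433, 1101 and 606 RPM and missed the threshold (log2 ratio 0.98, SE 0.35, adjusted p = 0.055), with a replicate 2 ratio that turned from 0.49 to -0.01 with rRNA left out of the total. Of 21 mitochondrial tRNAs, 15 were lower, against 7.18% of all items. They were led by mt:tRNA-Ser-TGA with 84.2, 6.38 and 4.10 RPM (log2 ratio -3.97), mt:tRNA-Trp-TCA with 26.6, 1.91 and 1.43 RPM (log2 ratio -3.95) and mt:tRNA-Tyr-GTA with 93.7, 9.19 and 8.83 RPM (log2 ratio -3.37).

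A single mitochondrial tRNA was higher. mt:tRNA-Val-TAC had 60.6, 303 and 320 RPM (log2 ratio 2.36, SE 0.27, adjusted p = 2.04e-05), and its gene, at chrM:14058-14130 in RefSeq's dm6 assembly (Release 6 plus ISO1 MT), lies between mt:lrRNA (chrM:12735-14058) and mt:srRNA (chrM:14131-14916). On the far side of mt:lrRNA, mt:tRNA-Leu-TAG had 2 reads against 36 and 9 and was not called. These 4 neighbours were the mitochondrial items with the highest fitted ratios.

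**Figure D4:**
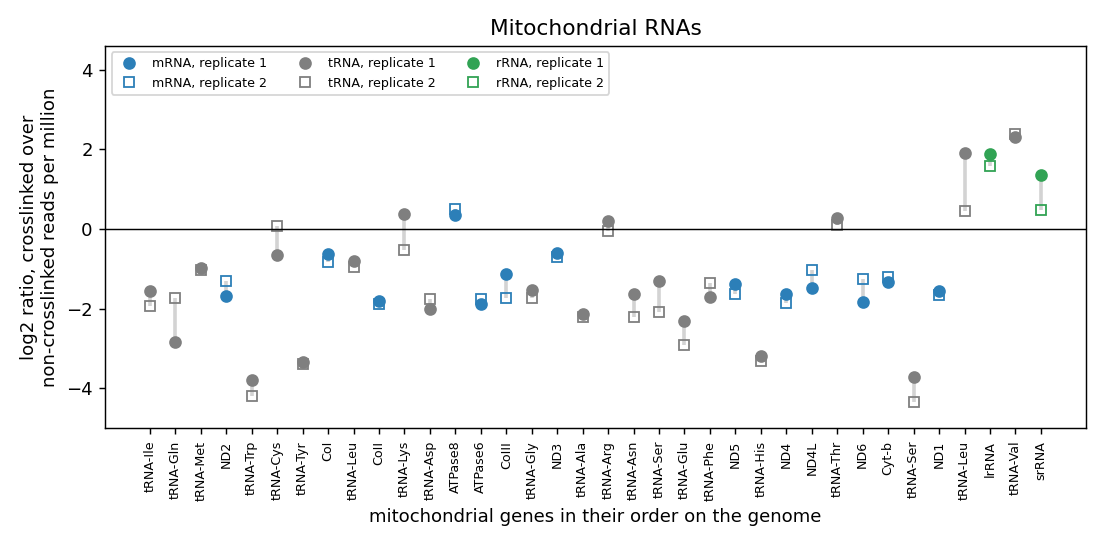
The 36 tested mitochondrial RNAs are placed in the order of their genes, with the log2 ratio of crosslinked over non-crosslinked input as filled circles for replicate 1 and open squares for replicate 2. mRNAs (blue) lie below 0 except ATPase8, and the 4 rightmost items, the 2 rRNAs (green) with tRNA-Val and tRNA-Leu (grey), lie above 0 in both replicates with rRNA in the total, while without it srRNA and tRNA-Leu fall just below 0 in replicate 2.

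Exons of nuclear and mitochondrial mRNA genes held 4.72% of annotated reads without crosslinking and 5.71% in each crosslinked input, a 1.21-fold higher share that turned to 0.895-fold with rRNA left out of the total. Of 5532 exon items, 966 (17.5%) were higher and 164 (2.96%) lower, and without rRNA in the total 140 (2.53%) were higher and 236 (4.27%) lower. With rRNA in the total, the ratio was above 0 in both replicates for 3984 items and below 0 in both for 828. That balance depended on the total too, as the median log2 ratio was 0.47 with rRNA and 0.04 without it. Most of the higher calls thus ended with the other total. Higher calls were also more frequent among well-read items. By quartile of mean reads they numbered 48 of 1384, 117 of 1382, 257 of 1383 and 544 of 1383 exon items. The quartile medians were 0.27, 0.45, 0.50 and 0.55, and lower calls numbered 68, 36, 20 and 40. Counts for the gene lists below were not adjusted for read depth. All 16 genes named next for their gains and losses passed under both totals.

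The 8 largest gains among exon items with a mean of 100 or more reads were moderate. Cp1, a cathepsin L protease, had 6.21, 23.1 and 22.7 RPM (log2 ratio 1.88, SE 0.25, adjusted p = 8.5e-05), with replicate ratios of 1.49 and 1.35 when rRNA was left out of the total. Tsp42Ee, a tetraspanin membrane protein, had 6.96, 24.8 and 27.4 RPM (log2 ratio 1.90), and the adhesion protein gene Fas1 7.70, 26.8 and 25.7 RPM (log2 ratio 1.77). Idh, isocitrate dehydrogenase, had 3.73, 12.5 and 12.8 RPM (log2 ratio 1.76). CG9336, CG5554, CG7716 and hdly had log2 ratios of 1.93, 1.81, 1.78 and 1.84. All 8 had 12 to 31 reads in the non-crosslinked input and met the minimum through the deeper crosslinked libraries, where they were high. The crosslinked replicates lay close to each other.

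The largest losses were far steeper. Cks85A, a cyclin-dependent kinase subunit gene (chr3R:8712906-8718456), had 675.4 reads without crosslinking and 33.0 and 58.0 with it, or 168, 2.11 and 5.17 RPM (log2 ratio -5.59, SE 0.31, adjusted p = 2.76e-08). GlyS, glycogen synthase, had 88.6, 3.51 and 5.08 RPM (log2 ratio -4.39), and rk, the bursicon receptor, 56.8, 4.26 and 3.35 RPM (log2 ratio -3.86). The mitotic kinase gene Nek2 had 648, 41.3 and 81.4 RPM (log2 ratio -3.40, SE 0.32), and mtRNApol, the mitochondrial RNA polymerase, 63.7, 7.85 and 8.07 RPM (log2 ratio -3.0). CG31321, CG11149 and spg, a DOCK-family exchange factor gene, had log2 ratios of -3.57, -3.77 and -3.53. For CG31321, CG11149, Nek2, spg and Cks85A, crosslinked replicate 2 lay above replicate 1, yet both stayed far below the non-crosslinked library.

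In lowered genes the non-crosslinked reads were often concentrated in 1 deposited segment. Among exon items with at least 50 such reads, the top segment held a median of 97.0% in the 62 lower items, 36.9% in the 258 higher ones and 37.4% in the 469 not called. It held over 90% in 58.1%, 3.49% and 2.56% of them. For GlyS the top segment had 86.1, 0.638 and 0.714 RPM, while the rest of the gene had 2.49, 2.87 and 4.37 RPM. For mtRNApol the rest of the gene had 3.98, 4.88 and 4.10 RPM. The rest was lower too, on few reads, for rk (1.24, 0.239 and 0.624 RPM), CG31321 (0.746, 0.159 and 0.0892 RPM) and CG11149 (1.41, 0.0638 and 0 RPM). The top segment was picked by its non-crosslinked reads, so this is a description with no test. Items with only 1 deposited segment, such as Nek2, hold 100% there by construction and were not set aside.

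Among piRNA pathway genes, piwi was lower. It encodes the nuclear Argonaute that silences transposons in these cells (chr2L:10982205-10987420) and had 424, 87.6 and 112 RPM over its exons (log2 ratio -2.09, SE 0.24, adjusted p = 1.82e-05). Its top segment held 48.0% of the non-crosslinked reads and its 2 top segments 95.9%, and the remaining segments had 17.3, 35.5 and 30.2 RPM. Its introns did not differ by the test, with 2.49, 2.81 and 2.05 RPM (adjusted p = 0.999). arx itself had 1, 3 and 5 exon reads, under the minimum. Of 18 tested piRNA pathway genes, 6 were higher and 2 lower, against 17.5% and 2.96% of all exon items. Without rRNA in the total, 2 were higher and 2 lower, against 2.53% and 4.27%. The median log2 ratio was 0.65 (0.22 without rRNA), next to 0.47 (0.04) over all exons. armi, a helicase of piRNA biogenesis, rose from 41.4 RPM to 68.8 and 65.9 RPM (log2 ratio 0.70, adjusted p = 0.0255), and Panx, which acts with Piwi in nuclear silencing, had 4.56, 1.72 and 1.28 RPM and was lower (log2 ratio -1.55, adjusted p = 0.0175). SoYb rose by a log2 ratio of 0.67, a call that ended, like that of armi, with rRNA left out of the total, and tj, with a ratio of 0.56, was not called (adjusted p = 0.0642).

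Of 86 ribosomal protein genes, 45 had higher exon levels and 1 a lower one, against 17.5% and 2.96% of all exon items, with a median log2 ratio of 0.75 (0.31 without rRNA), next to 0.47 (0.04) over all exons. The shares over all exon items pool all read depths, whose part in the list counts was not tested. RpL3 had 47.5, 87.3 and 72.8 RPM, RpL4 38.5, 78.6 and 68.3 RPM, RpL41 24.4, 56.1 and 56.9 RPM and RpL8 22.1, 54.7 and 42.7 RPM. With rRNA left out, 12 of the 86 were higher and 2 lower, against 2.53% and 4.27% of all exon items. Of the examples, RpL41 kept its call. Of 33 translation factors, 10 were higher and none lower (median 0.65), against 17.5% and 2.96% of all exon items. With rRNA left out, 1 was higher (median 0.21), against 2.53%. The poly(A)-binding protein gene pAbp rose from 67.8 to 127 and 127 RPM, a call that ended with rRNA left out, while eEF1alpha1, the elongation factor that delivers aminoacyl-tRNA, had 248, 441 and 382 RPM without passing (adjusted p = 0.0555). All 5 replicative histone items were higher (median 1.16), and 1 of them also without rRNA in the total, against 17.5% and 2.53% of all exon items. His3 had 13.9, 41 and 38.6 RPM.

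The nuclear genes of oxidative phosphorylation went against the mitochondrial ones. Of 51 tested, 21 were higher and none lower, against 17.5% and 2.96% of all exon items, with a median log2 ratio of 1.01 (0.58 without rRNA). ATPsynbeta, the catalytic ATP synthase subunit, had 6.54, 19.2 and 16.1 RPM (log2 ratio 1.45, adjusted p = 0.00145), and ATPsynC 36.3, 57.5 and 54.3 RPM (log2 ratio 0.62). With rRNA left out of the total, 5 of the 51 were higher, against 2.53% of all exon items, ATPsynbeta among them and ATPsynC not.

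Of 15 heat shock genes, 7 had higher exon levels, against 17.5% of all exon items (median 0.76). None did with rRNA left out, against 2.53% (median 0.32). Hsp83, the fly Hsp90, had 199, 330 and 325 RPM (adjusted p = 0.0499), and Hsc70-4 132, 226 and 227 RPM, while the inducible Hsp70Aa had 2.04, 2.23 and 1.92 RPM. Of 20 DNA damage and p53 response genes, 3 were higher, close to the 17.5% of all exons, and none without rRNA (median 0.32, and -0.12 without rRNA). PCNA, the replication clamp, had 5.22, 13.3 and 12.7 RPM. Of 13 immediate early and JNK genes, 1 was higher and 2 lower, against 17.5% and 2.96% of all exon items (median 0.22, and -0.22 without rRNA). In this list kay, the fly Fos, had 29.0, 35.2 and 34.4 RPM (adjusted p = 0.35). Among 29 splicing factor genes, 9 were higher, with sqd, an hnRNP, at 51.9, 113 and 114 RPM, and among 16 ovarian somatic genes 5 were higher, with arm, the fly beta-catenin, at 15.2, 27.4 and 28.9 RPM. Both counts stand next to 17.5% of all exon items. With rRNA left out, 3 of the splicing factor genes and none of the ovarian somatic genes were higher, against 2.53% of all exon items, and sqd and arm lost their calls.

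Introns held 2.77% of annotated reads without crosslinking and 3.28% and 3.34% with it. Of 1671 intron items, 199 (11.9%) were higher and 292 (17.5%) lower, and without rRNA in the total 46 (2.75%) were higher and 367 (22%) lower. The median log2 ratio was 0.10, and -0.33 without rRNA. In 1358 genes with both parts tested, the intron ratio minus the exon ratio, which no choice of total changes, had a median of -0.19. It was below 0 in both replicates in 701 genes and above 0 in both in 423. Among items with a mean of 100 or more reads that median was 0.05, so its sign rested on the less-read genes.

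The named intron gains all lay in genes that hold a snoRNA or scaRNA gene within their span in RefSeq. RpL22 (chrX:762560-765130) had 15.2, 182 and 188 intron RPM (log2 ratio 3.61, SE 0.29, adjusted p = 1.25e-06) and its gene holds Psi18S-531 and Psi28S-2179. RpL4 had 19.1, 209 and 318 RPM (log2 ratio 3.78) and holds Or-aca3. RpS12 had 0.828, 14 and 15.3 RPM (log2 ratio 4.27) and holds Me28S-A774a and Me28S-A774b. Stt3A, an oligosaccharyltransferase subunit gene (4.64, 40.8 and 49.4 RPM), and lds, a transcription termination helicase gene (3.06, 25.8 and 38 RPM), hold scaRNA:MeU2-C28 and scaRNA:MeU2-C41 respectively, and Stt3A holds 2 snoRNA genes as well. These introns had 3.3 (RpS12) to 77 (RpL4) reads in the non-crosslinked input, so RpS12 lay near the floor of 3 reads. They met the minimum for naming through the deeper crosslinked libraries, where they were high.

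Over all introns, 48 of 71 items with a snoRNA gene in the gene's span were higher and 2 lower (median log2 ratio 1.87), while 145 of 1544 items with neither a snoRNA nor a tRNA gene were higher and 259 lower (median 0.08). With rRNA left out, the counts were 37 higher and 2 lower against 9 higher and 332 lower. The exons of snoRNA-holding genes had a median of 0.64. Within 66 genes with both parts tested, the intron exceeded the exon by a median log2 difference of 1.14, in both replicates for 48 genes.

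Gene lists differed in how many members hold a snoRNA gene. All 23 ribosomal protein genes with a tested intron hold a snoRNA gene, and 19 of these introns were higher (median 2.3), 17 of them also with rRNA left out. RpS7 had 137, 646 and 1045 intron RPM (log2 ratio 2.62). Of 11 splicing factor introns, the 4 that were higher, Sf3b3, Hrb98DE, SC35 and tra2, are among the 5 whose gene holds a snoRNA gene. Without crosslinking, tra2 (0.249 RPM) lay below the floor, as did sta and RpS9 (0.497 RPM each) among the higher ribosomal protein introns. These met the minimum of reads through the crosslinked libraries. A snoRNA gene also lies in 2 of 8 translation factor genes with a tested intron. How many of these intron reads are snoRNA reads was not tested.

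Introns of genes with a tRNA gene in the span went down: 31 of 58 were lower and 6 higher (median -0.85), against 17.5% lower over all introns. CG43175 had 496.2 intron reads without crosslinking and 28.5 and 19.2 with it (log2 ratio -6.13, SE 0.21, adjusted p = 1.73e-09), and its span holds a tRNA-Ala and a tRNA-Pro gene. Dbx, a homeobox gene, had 259, 3.19 and 4.77 RPM (log2 ratio -6.05) and holds a tRNA-Cys gene. Ptr had 336, 8.26 and 6.68 RPM (log2 ratio -5.48) with 2 tRNA-Asn genes, and CG9289 96.8, 5.55 and 4.04 RPM (log2 ratio -4.31) with 2 tRNA-Asp genes. EcR, the ecdysone receptor gene, holds 13 tRNA genes and had 318, 91.7 and 77.9 intron RPM (log2 ratio -1.91).

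Not every lowered intron lay in a gene with a tRNA gene in its span. sns, a nephrin-like adhesion gene, holds none and had 722, 23.2 and 18.8 intron RPM (log2 ratio -5.10). ATPsynC holds none either and had 837, 79.1 and 82.3 intron RPM (log2 ratio -3.37). Among lowered items with at least 50 non-crosslinked reads, a tRNA gene lay in the span for 23 of 90 introns and 2 of 62 exon items. Counting tRNA genes within 1000 bases of the span, there were 23 introns and 14 exon items, and the 12 added exon items were the lowered mitochondrial mRNAs. All of them but mt:ATPase6, which lay 156 bases from the nearest tRNA gene, were within 19 bases of a mitochondrial tRNA gene.

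**Figure D5:**
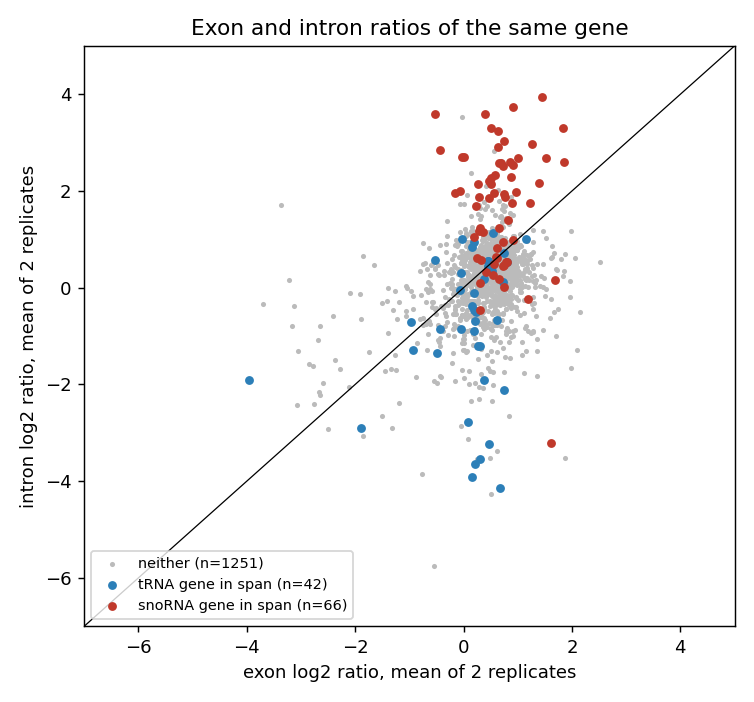
Each point is a gene with exon and intron both tested, with the exon log2 ratio on the horizontal and the intron log2 ratio on the vertical axis, each the mean of 2 replicates. Genes holding a snoRNA gene (red, n = 66) lie mostly above the diagonal and genes holding a tRNA gene (blue, n = 42) mostly below it, with medians of intron minus exon of 1.14 and -0.38.

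Longer genes had lower intron ratios. Across quartiles of the RefSeq gene span, each of 416 intron items, the median intron log2 ratio was 0.33, 0.18, -0.02 and -0.20. Without rRNA in the total it was -0.11, -0.25, -0.45 and -0.63. Lower calls numbered 30, 23, 78 and 158 and higher calls 57, 34, 54 and 53, against 17.5% and 11.9% of all intron items. Exon medians were 0.66, 0.51, 0.40 and 0.41, and 0.23, 0.07, -0.03 and -0.03 without rRNA. Median exon ratios on the chromosome arms 2L, 2R, 3L, 3R and X lay between 0.45 and 0.50, and between 0.02 and 0.07 without rRNA. On the Y chromosome 6 of 8 intron items were lower (median -2.06), against 17.5% of all intron items. Whether these reads come from Y chromosome transcripts was not tested.

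Transposon RNA was dominated by a pair of endogenous retroelements. LTR elements, copied through an RNA intermediate and many of them silenced by Piwi in ovarian somatic cells, took 0.797% of annotated reads without crosslinking and 2.05% and 2.02% with it, a 2.56-fold higher share. Copia_I-int had 3342, 10153 and 9547 RPM (log2 ratio 1.56, SE 0.35, adjusted p = 0.00589) and Gypsy1-I_DM 2854, 7904 and 8209 RPM (log2 ratio 1.5, adjusted p = 0.00664). Neither call held with DESeq2 size factors (log2 ratios 1.09 and 1.03). Together they held 77.8% of LTR reads without crosslinking and 87.9% and 87.7% with it. Without them the LTR share was 0.177% against 0.249% and 0.248%. The single LTR items were spread on both sides, with 22 of 102 higher and 20 lower, next to 18.7% and 7.18% of all items (median log2 ratio 0.02). When the total lacked rRNA, 6 were higher and 29 lower (median -0.41).

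Among other LTR elements, Gypsy3_I-int had 6.80, 26.8 and 32.3 RPM (log2 ratio 2.13) and Copia_LTR 18.9, 85.3 and 56.2 RPM (log2 ratio 1.91). Of 2 further elements, Gypsy_I-int (135, 191 and 186 RPM) was not called, and ZAM_I-int (10.9, 4.82 and 5.11 RPM, log2 ratio -1.14) was lower. LINE elements, which lack terminal repeats, had 9 of 34 consensus items lower and 1 higher, next to 7.18% and 18.7% of all items. Without rRNA in the total, 16 were lower and none higher. G_DM had 87.2, 4.74 and 4.49 RPM (log2 ratio -4.24, adjusted p = 5.47e-09), G2_DM 74.9, 13.3 and 15.5 RPM (log2 ratio -2.39), IVK_DM -1.83 and R1_DM -1.46 on the log2 scale. For G_DM a single copy held 71.8% of the non-crosslinked reads. The satellite DMSAT6 was lower (46.0, 5.55 and 3.93 RPM), and NTS_DM, the rDNA spacer repeat, was higher (3.98, 31.2 and 35.8 RPM, log2 ratio 3.07).

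flam, the piRNA precursor locus of these cells, did not pass as a gene in its intron or exon item. The intron item had 402, 573 and 528 RPM (log2 ratio 0.45, SE 0.26, adjusted p = 0.219) and the exon item 4, 27 and 27 reads (adjusted p = 0.267). The separate cluster item flam.5 had 6.74, 12.8 and 11.4 RPM and was higher (log2 ratio 0.85, SE 0.27, adjusted p = 0.031), but not with rRNA left out (log2 ratio 0.42, adjusted p = 0.527). Of other noncoding RNAs, 15 of 92 exon items were higher and 13 lower, next to 18.7% and 7.18% of all items, and 7 were higher and 14 lower without rRNA in the total. Uhg4 and Uhg2, host transcripts that hold 7 and 4 snoRNA genes, had 37.0, 226 and 347 RPM (log2 ratio 2.95) and 9.69, 48.3 and 52.1 RPM (log2 ratio 2.37). CR43604 had 18.1, 145 and 136 RPM (log2 ratio 2.96) and CR40469 a log2 ratio of 2.44. The intron of CR42491, which lies within the span of RpL22, had 126, 310 and 396 RPM.

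On the lower side, CR44537 had 100, 3.76 and 5.00 RPM (log2 ratio -4.54), CR45940 189, 11.5 and 25.5 RPM (log2 ratio -3.37) and CR43612 160, 11.2 and 22.1 RPM (log2 ratio -3.28). Among introns of noncoding RNAs, 6 of 51 were higher and 19 lower (1 and 23 without rRNA in the total), next to 18.7% and 7.18% of all items. On the log2 scale CR44833 was at -3.04 and CR44357 at -1.42. In both crosslinked libraries these RNAs stayed below the non-crosslinked level. The 40 tested items without a read in the non-crosslinked input met the minimum through the crosslinked libraries alone. No count of calls is therefore given for them apart, but the counts of higher items above include those that were called. Among them, CG15715 had 54.3 and 43.7 reads with crosslinking, a mean level 4.94-fold the floor of 3 reads in the non-crosslinked input. No tested item with a read in the non-crosslinked input was at 0 in both crosslinked inputs, a count that the deeper crosslinked libraries bear on.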

How the data were processed

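For each library, the deposited values are an estimated count of reads for every annotated feature, not always whole. Per the submitters' processing notes, bcl2fastq 2.19, STAR 2.5.2b and bedtools 2.29.0 and the builds dm6 and mm10 were used, with roles, annotation and treatment of PCR duplicates not given in the sources used here. Unannotated reads were removed from totals and tests, and estimated counts were summed per item and rounded. Exon and mRNA features of a gene were summed. The members, gene lists and tests were chosen with earlier results of these data known. edgeR 4.0.16 (R 4.3.3) fitted the 3 inputs with annotated reads, rRNA included, as library size and no further scaling; standard errors come from the log2 ratio and its F statistic. Replicate ratios used a pseudocount of 0.5 reads, and class and list medians are of the mean of both. On simulated counts for the 7998 items, 78.5% of 200 changes of 4-fold were recovered, with 1 false call. All 3 simulated libraries were given the same spread. The result thus cannot tell how many calls would be false if the non-crosslinked library varied otherwise. DESeq2 1.42.0, TMM, other totals, minimums and single features were alternatives. Intervals and floors cover counting error only.

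Genes were named by rule: with a mean of at least 100 reads, the 8 largest increases and 8 decreases among exons by the smaller replicate ratio and 5 of each among introns, tRNA, snoRNA, transposons and noncoding RNAs, all snRNAs and processing RNAs, the mitochondrial rRNAs, up to 4 most-read members per list, and arx, piwi, tj and flam. Others were chosen after their values were seen, among them U3, tRNA-Glu, tRNA-Gln, tRNA-Lys, the scaRNAs, EcR, flam.5, CG15715, Gypsy_I-int and ZAM_I-int. The minimum of reads is a mean over the 3 libraries, so the deeper crosslinked inputs weigh on it most. Of 7203 exon and intron items, 7178 matched RefSeq names. RefSeq spans give only whether a snoRNA or tRNA gene lies within a gene. Sequences are not reported here. Figures were drawn with matplotlib 3.10.9.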

Additional observations from a re-analysis of the deposited data

How the results depend on the processing

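No paired analysis was possible because the groups compared share fewer than 2 replicate numbers. The count of higher items depended on the scaling and on the test. It fell from 1492 to 458 without rRNA in the total, 459 with TMM and 327 with DESeq2 size factors, and higher calls fell from 72.2% of all calls to 37.8%, 37.3% and 33.4%. DESeq2's Wald test, scaled by the same annotated total as the main fit, gave 358 higher and 288 lower, with an adjusted p for 6602 items. Lower items numbered 1311 with no minimum of reads and 150 with a minimum mean of 100 reads, as other items were tested. The fit on all 6 libraries gave 1598 higher and 593 lower. Leaving 1 crosslinked input out of that fit, so that 5 libraries remained, gave 1497 to 1907 higher and 574 to 637 lower. Items past 2-fold higher in both replicates numbered 647, 648 and 634 under these 3 scalings, 438 at the minimum of 100 reads, 3028 over deposited features and 792 with a pseudocount of 2 reads; without 1 replicate there were 1475 to 1617. Items past 2-fold lower numbered 890 with DESeq2 size factors, 6858 with no minimum and 104 at the minimum of 100 reads, and 687 to 688 without 1 replicate.

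The crosslinked over non-crosslinked ratio of the tRNA share was 0.0647, and 0.0480 without rRNA in the total, 0.0741 without rRNA, snoRNA and snRNA, and 0.0605 to 0.0688 without 1 replicate. The snoRNA ratio was 4.41 without rRNA and 5.38 to 6.60 without 1 replicate. The exon ratio was 0.895 without rRNA, 1.23 with unannotated reads and 1.38 without rRNA, snoRNA and snRNA, and the intron ratio 0.884, 1.22 and 1.37. Class medians moved as follows without rRNA, with TMM and with DESeq2 size factors: tRNA to -3.19, -3.20 and -3.22, snoRNA to 2.35, 2.33 and 2.31, exons to 0.04, 0.02 and 0.00, introns to -0.33, -0.35 and -0.37 and LTR elements to -0.41, -0.43 and -0.45. With no minimum, exons had -0.26, introns -0.93 and LTR elements -0.03. At the minimum of 100 reads, tRNA had -2.90, exons 0.55 and introns 0.49. Over deposited features, tRNA had -2.90, exons 0.53 and introns 0.33. Without 1 replicate, tRNA medians were -2.85 to -2.82, snoRNA 2.63 to 2.93, exon 0.46 to 0.49 and intron 0.04 to 0.21. Intron minus exon was -0.56 with no minimum, 0.05 at 100 reads and -0.26 to -0.09 without 1 replicate. List medians changed sign under the same 3 scalings for DNA damage exons (-0.12, -0.13 and -0.15), immediate early exons (-0.22, -0.23 and -0.25) and ovarian somatic introns (-0.34, -0.35 and -0.37), and with DESeq2 size factors for splicing factor introns (-0.01). Of the 78 named items, Copia_I-int, Gypsy1-I_DM, CR42491, U2 and U6atac lost their call under a scaling; tj and mt:srRNA gained one without crosslinked replicate 2, and RNase P gained one without it and without rRNA. The cause of these changes was not tested. The lone non-crosslinked library, with the fewest reads, limits every ratio.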

Other observations

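Annotated piRNA clusters, the loci whose transcripts are processed into piRNAs, took 0.205% of annotated reads without crosslinking and 0.272% and 0.281% with it. Of 148 cluster items tested, 14 were higher and 10 lower, against 18.7% and 7.18% of all items, while 3 were higher and 13 lower without rRNA in the total. The cluster chrX-5A3.1 had 142, 424 and 507 RPM in the non-crosslinked input and crosslinked replicates 1 and 2 (edgeR log2 ratio 1.71, SE 0.28, adjusted p = 0.000468). The cluster CG4266.1 had 222, 26.5 and 23.8 RPM (log2 ratio -3.14, SE 0.20, adjusted p = 1.47e-07). All items named here were picked with their values in view. The cluster piRNAdb-15, had 335, 443 and 446 RPM and was not called (adjusted p = 0.253).

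Of 5 hairpin RNAs, which feed endogenous siRNAs, CR46342 was higher with 10.2, 17.2 and 19.2 RPM (log2 ratio 0.83, adjusted p = 0.0204) and the other 4 were not called. Its call ended with rRNA left out of the total (log2 ratio 0.40, adjusted p = 0.502). Of 4 rRNA pseudogene items, the 5S one rose from 10.4 to 50.8 and 52.1 RPM (log2 ratio 2.30), as 5S rRNA itself did, and the 18S and 28S ones were lower. DNA transposons had 4 of 17 items higher and 1 lower, next to 18.7% and 7.18% of all items, but 2 higher and 5 lower with rRNA left out. FB4_DM had 112, 158 and 288 RPM (log2 ratio 0.99, adjusted p = 0.0404), and its crosslinked replicates lay far apart. It was not called with rRNA left out (log2 ratio 0.54, adjusted p = 0.25).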
